A study of Homo sapiens with 12 samples.

Results

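The 10 genes followed here belong to the glutathione and thioredoxin systems and were measured in 12 RNA sequencing libraries from human leukaemia cell lines. They were taken by symbol from the deposited table of 58191 gene rows, and each symbol matched 1 row, so all 10 members were found. The study compared cells that overexpress EVI1, the zinc finger protein that MECOM encodes and that regulates transcription, with control cells, in libraries labelled K562 and in libraries labelled MOLM14. K562 cells derive from a blast crisis of chronic myeloid leukaemia and have erythroid features. MOLM14 cells derive from acute monocytic leukaemia and carry a KMT2A fusion and a tandem duplication within FLT3. The 4 groups were K562 with EVI1 overexpression, K562 control, EVI1 overexpression labelled MOLM14 and control labelled MOLM14, with 3 libraries each, and the controls are called wild type in the labels. The labels name no vector, promoter, clone or drug, and no separate cultures, so p-values measure only the spread between these libraries, which may be technical.

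Glutathione is a cysteine-containing tripeptide that is made by glutamate-cysteine ligase and then by glutathione synthetase, is spent by glutathione peroxidases on hydrogen peroxide and lipid hydroperoxides, and is restored from its disulfide by glutathione reductase. Thioredoxin is a small protein that reduces disulfides in peroxiredoxins and ribonucleotide reductase, and is itself restored by thioredoxin reductase. Both systems draw on NADPH, and many of their genes are known targets of the transcription factor NRF2 (NFE2L2), which KEAP1 holds in check and which binds antioxidant response elements in DNA.

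Levels are the authors' FPKM, fragments scaled to transcript length and library size, so levels of different genes are compared here per length. Names of genes applied to the columns labelled MOLM14 only in the first 5510 rows, since there the control means under the 2 labels were correlated across genes in 11 windows of 500 rows, with a lowest Pearson r of 0.965, against 0.0415 in the next window. The members GCLC, GCLM, GSS and GSR lie in those first rows, and the other 6 members are described in K562 alone. Markers in the libraries labelled MOLM14 were mixed. The erythroid factors GATA1 and KLF1 averaged 145 and 59.6 FPKM in EVI1 and 113 and 34.5 FPKM in control libraries, and FLT3, HOXA9 and MPO averaged under 0.1 FPKM in both groups. Of the 10 usable monocytic markers, 5 averaged at least 1 FPKM in EVI1 and 6 in control libraries. Among them were LYZ at 35.5 and 80.9, SPI1 at 29.7 and 44.2 and CD33 at 10.4 and 34.8 FPKM. TYROBP averaged 6.09 and 24.8 FPKM, and PTPRC 69.6 and 45.7 FPKM. In EVI1 libraries 2 of the 10 (PTPRC and CEBPE) lay above every control, 5 lay below every control and 3 overlapped. The 10 monocytic markers summed to 145 to 160 FPKM in EVI1 and 216 to 246 FPKM in control libraries. The sum of the 4 usable erythroid markers was 626 to 651 and 413 to 435 FPKM. K562 libraries carried some of the 20 monocytic markers too, of which 7 averaged at least 1 FPKM in EVI1 and 9 in control libraries. FLT3, HOXA9 and HOXA10 lay under 0.1 FPKM in both K562 groups. The 20 summed to 193 to 223 FPKM in K562 EVI1 and 217 to 245 FPKM in K562 control libraries. In K562 EVI1 libraries 7 of the 20 lay above every control, 6 lay below every control and 7 overlapped. LYZ averaged 12.5 FPKM in K562 EVI1 and 21.8 FPKM in K562 control libraries, SPI1 18.6 and 28.8, and CD33 53.3 and 24.7 FPKM. PTPRC averaged 21.5 and 7.19 FPKM there, TYROBP 0.936 and 3.56, and GATA1 164 and 150 FPKM. Which line the libraries labelled MOLM14 come from was not tested, and they are called by their label throughout. MECOM averaged 24.0 ± 1.94 FPKM in K562 EVI1 and 12.2 ± 2.08 FPKM in K562 control libraries, and 17.6 ± 0.617 FPKM in EVI1 and 9.08 ± 0.562 FPKM in control libraries labelled MOLM14 (SD, n = 3 each), with no overlap under either label. From steps in low FPKM values, K562 EVI1 libraries held about 54900000 to 72700000 and K562 control libraries about 35400000 to 62500000 fragments, while no depth could be estimated for libraries labelled MOLM14. Summed over 10 markers of T and NK cells, K562 EVI1 libraries held 102 to 109 FPKM and K562 control libraries 43.1 to 48.9 FPKM. CD2 and KLRD1 lay under 0.1 FPKM in both. Most of it was CD3D at 60.8 and 38.5, TRBC2 at 33.4 and 5.81 and TRAC at 8.66 and 0.587 FPKM. In EVI1 libraries 6 of the 10 lay above every control, 2 (CD2 and NKG7) lay below every control and 2 overlapped. The sum over 12 erythroid markers was 12428 to 15531 FPKM in EVI1 and 9581 to 10269.8 FPKM in control libraries. That sum was mostly globin, with HBE1 at 6720.4 and 3341 FPKM, and the markers did not move together: in EVI1 libraries 5 of the 12 lay above every control, 4 (HBZ, KLF1, EPOR and TFRC) lay below every control and 3 overlapped. KLF1 averaged 61.3 and 81.0 FPKM and TFRC 144 and 192 FPKM. The part of these shifts in the results below was not tested. How many of all genes lay wholly above or below the controls was not counted, so the marker counts have no such share beside them. In the limma tests described below, 51.9% of genes in K562 and 54.2% of rows labelled MOLM14 had an adjusted p under 0.05.

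The members' promoters are shown because NRF2 acts on many of them through the antioxidant response element, whose core was searched as TGACNNNGC on both strands. RefSeq promoters on GRCh38.p14 held entries for 8 of the 10 members, 11 entries in all, since TXNRD1 and GPX4 have several starts; GSS and GSR had none. In the 120 bases before the start, 3 of the 11 entries held the core, those of GCLM and of both starts of TXNRD1, against 6.02% of all 35116 entries searched in the same length. The GC box GGGCGG, searched on both strands, was present in 7 of the 11 entries and in 34% of all entries. The windows of GCLM and TXNRD1, which hold the core, are followed by those of the 4 members that fell in K562 and have an entry. Capitals mark matches to either motif, which do not overlap each other; each line runs 5′ to 3′ on the strand of the gene and ends at the base before the start.
GCLM, chr1:93909431-93909550, minus strand: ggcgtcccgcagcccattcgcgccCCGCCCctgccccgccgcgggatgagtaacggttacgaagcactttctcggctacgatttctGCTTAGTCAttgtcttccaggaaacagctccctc
TXNRD1 upstream start, chr12:104215659-104215778, plus strand: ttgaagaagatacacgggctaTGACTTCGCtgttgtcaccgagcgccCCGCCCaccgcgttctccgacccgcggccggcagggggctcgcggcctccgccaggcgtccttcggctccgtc
TXNRD1 downstream start, chr12:104286912-104287031, plus strand: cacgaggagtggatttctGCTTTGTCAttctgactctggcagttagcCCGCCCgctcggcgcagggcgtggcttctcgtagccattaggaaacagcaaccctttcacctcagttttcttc
GCLC, chr6:53545102-53545221, minus strand: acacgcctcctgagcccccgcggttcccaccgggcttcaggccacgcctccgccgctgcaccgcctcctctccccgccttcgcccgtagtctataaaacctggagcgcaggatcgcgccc
NQO1, chr16:69726561-69726680, minus strand: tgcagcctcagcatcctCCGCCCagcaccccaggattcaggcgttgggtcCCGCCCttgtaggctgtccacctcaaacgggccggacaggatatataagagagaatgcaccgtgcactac
TXN, chr9:110256508-110256627, minus strand: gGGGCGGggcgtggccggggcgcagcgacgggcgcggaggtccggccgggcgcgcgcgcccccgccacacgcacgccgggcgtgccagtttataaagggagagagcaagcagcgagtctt
SRXN1, chr20:653201-653320, minus strand: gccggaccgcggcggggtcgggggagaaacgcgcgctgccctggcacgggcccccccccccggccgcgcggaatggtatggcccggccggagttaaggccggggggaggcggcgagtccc
In GCLM the core reads GCTTAGTCA and begins 34 bases before the start. In TXNRD1 it reads TGACTTCGC at the upstream and GCTTTGTCA at the downstream start. The capitals in NQO1 and TXN are GC boxes, and the windows of GCLC and SRXN1 held no match to either motif. No match says only that these letters are not in these 120 bases.

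In K562, 5 of the 10 members were lower with EVI1 overexpression, none was higher, 4 did not pass the threshold and GPX1 lay below the expression filter. The genes that fell were GCLC and GSS of glutathione synthesis, TXN and SRXN1 of the thioredoxin system, and NQO1, with levels in EVI1 libraries of 68.5% to 81.9% of control. GCLM, GSR, TXNRD1 and GPX4 were not called. Of all 13800 genes tested, 51.9% were called and 23.7% were called lower, against 5 of the 9 members tested called lower, and the median log2 fold change was -0.29 over those 9 members and 0.0053 over all genes. A gene is called, or said to rise or fall, where limma's moderated test on log2(FPKM + 1), with Benjamini-Hochberg adjustment over all genes of the fit, gave an adjusted p under 0.05; fold changes are differences of mean log2(FPKM + 1), EVI1 minus control, a scale that understates changes of low genes. In bulk libraries, a lower level in every cell and fewer cells that express a gene cannot be told apart.

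**Figure D1:**
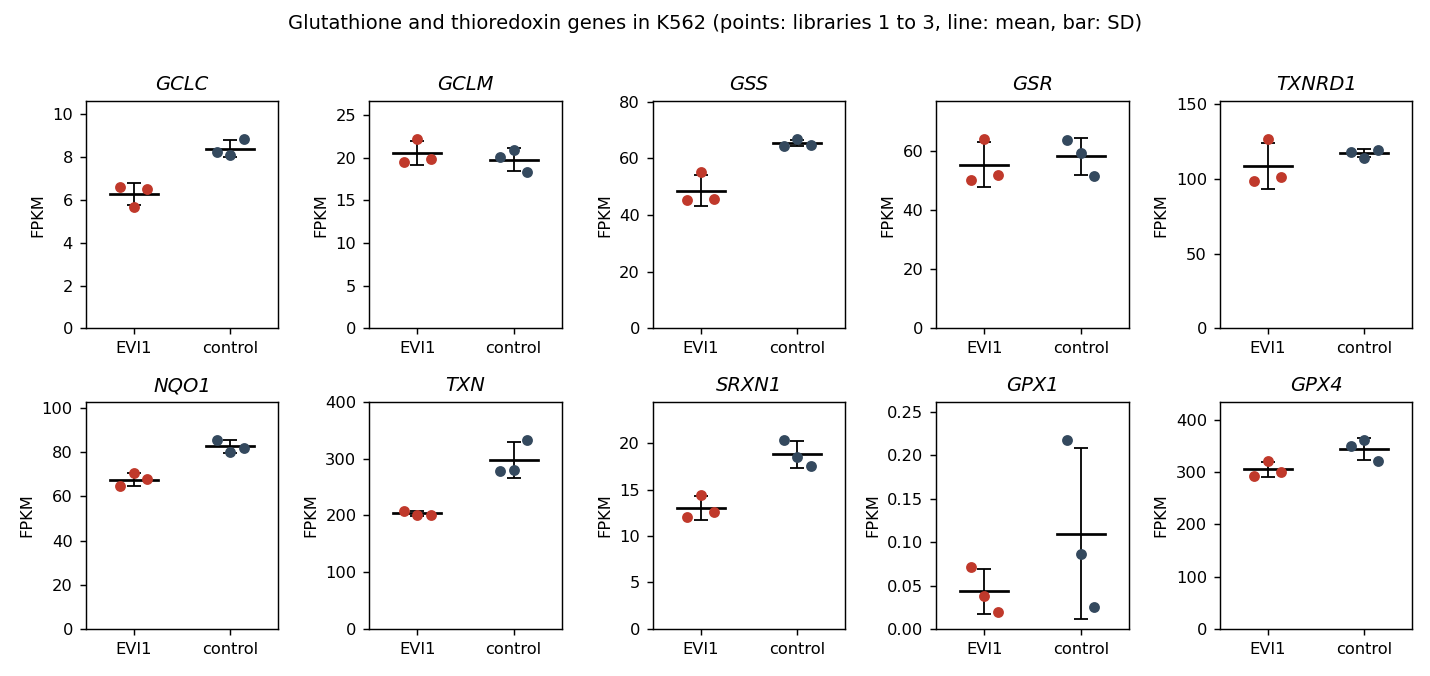
FPKM of the 10 members in the 3 K562 EVI1 libraries (red) and the 3 K562 control libraries (dark blue), each axis from 0, with the mean as a line and the SD as a bar. EVI1 libraries lie below every control library for GCLC, GSS, NQO1, TXN and SRXN1, and the groups overlap for GCLM, GSR, TXNRD1, GPX1 and GPX4.

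Of the genes for glutathione synthesis, the catalytic subunit of glutamate-cysteine ligase and glutathione synthetase fell in K562, and the modifier subunit was not called. GCLC (ENSG00000001084.10, chromosome 6, 53497341 to 53545101; gene spans are RefSeq's on GRCh38.p14), which encodes the catalytic subunit of the rate-limiting enzyme, had 6.60, 5.67 and 6.52 FPKM in EVI1 and 8.24, 8.08 and 8.83 FPKM in control libraries. The groups did not overlap, and EVI1 replicate 2 was lowest. GCLC changed by a log2 fold change of -0.37 (SE 0.093, limma adjusted p = 0.00982); with each library rescaled to a common FPKM sum the adjusted p was 0.0704 (0.00377 to 0.0704 over the alternatives tried). GSS (ENSG00000100983.9, chromosome 20, 34928432 to 34956027), which encodes glutathione synthetase, the enzyme that adds glycine, had 45.3, 55.0 and 45.5 FPKM in EVI1 and 64.5, 66.8 and 64.9 FPKM in control libraries. The groups did not overlap, although EVI1 replicate 2 stood nearer to the controls than its partners (log2 fold change -0.43, SE 0.088, adjusted p = 0.00394).

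GCLM (ENSG00000023909.9, chromosome 1, 93885199 to 93909430) encodes the modifier subunit, which lowers the ligase's need for glutamate and its inhibition by glutathione. It had 19.5, 22.2 and 19.9 FPKM in EVI1 and 20.1, 20.9 and 18.3 FPKM in control libraries, and the groups overlapped. Its log2 fold change of 0.052 (95% interval -0.14 to 0.25, adjusted p = 0.636) passed no threshold. The FPKM of GCLM divided by that of GCLC was 2.96, 3.91 and 3.05 in EVI1 and 2.44, 2.58 and 2.07 in control libraries, which did not overlap. That ratio is given as a description of the levels above, with no test.

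Of the enzymes that use NADPH, NQO1 fell and both disulfide reductases were not called. NQO1 (ENSG00000181019.12, chromosome 16, 69709401 to 69726560), a quinone reductase and a classical NRF2 target, had 64.7, 70.4 and 67.8 FPKM in EVI1 and 85.6, 80.1 and 82.1 FPKM in control libraries. Every EVI1 library lay below every control library, and the fold change on the log2 scale was -0.29 (SE 0.067, limma adjusted p = 0.00762; 0.0563 after rescaling to a common sum, 0.00657 to 0.0563 over the alternatives). GSR (ENSG00000104687.12, chromosome 8, 30678066 to 30727846), glutathione reductase, had 50.0, 64.0 and 51.9 FPKM in EVI1 and 63.8, 59.4 and 51.4 FPKM in control libraries. These groups overlapped over most of their range (log2 fold change -0.076, 95% interval -0.34 to 0.19, adjusted p = 0.605).

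TXNRD1 (ENSG00000198431.15, chromosome 12, 104215779 to 104350307) encodes the cytosolic thioredoxin reductase, a selenoprotein. It had 98.5, 127 and 102 FPKM in EVI1 and 118, 114 and 120 FPKM in control libraries. EVI1 replicates 1 and 3 lay below every control and EVI1 replicate 2 above every control, and the gene was not called (log2 fold change -0.11, 95% interval -0.34 to 0.11, adjusted p = 0.361). Without EVI1 replicate 2 the log2 fold change was -0.23 with an adjusted p of 0.0260 (0.0260 to 0.741 over the alternatives). That library was the highest of the 3 EVI1 libraries for 7 of the 9 members tested, all but GCLC and TXN. It also had the highest FPKM sum of the 3, 898547 against 765285 and 798092, and levels were tested as deposited, without rescaling.

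Thioredoxin itself showed the largest fall among the members. TXN (ENSG00000136810.12, chromosome 9, 110243810 to 110256507) had 208, 201 and 201 FPKM in EVI1 and 279, 279 and 333 FPKM in control libraries. The EVI1 libraries lay close together and below every control, and control replicate 3 was the highest (log2 fold change -0.54, SE 0.085, adjusted p = 0.001004). SRXN1 (ENSG00000271303.1, chromosome 20, 646615 to 653200), sulfiredoxin, which returns overoxidised peroxiredoxins to use, had 12.1, 14.4 and 12.6 FPKM in EVI1 and 20.4, 18.5 and 17.5 FPKM in control libraries. Its groups did not overlap either (log2 fold change -0.50, SE 0.096, adjusted p = 0.00277). TXN, SRXN1 and GSS were called under all 13 alternatives tried.

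The glutathione peroxidases stood at opposite ends of the range of listed levels. GPX4 (ENSG00000167468.16, chromosome 19, 1103994 to 1106779), a selenoprotein that reduces lipid hydroperoxides in membranes and protects cells from ferroptosis, had 293, 321 and 301 FPKM in EVI1 and 350.5, 362 and 320.4 FPKM in control libraries. EVI1 replicate 2 was just above control replicate 3, so the groups overlapped, and the gene was not called (log2 fold change -0.17, 95% interval -0.35 to 0.0018, adjusted p = 0.0884). Without control replicate 3 it was called, with a log2 fold change of -0.22 and an adjusted p of 0.0325 (0.0325 to 0.398 over the alternatives). GPX1 (ENSG00000233276.3, chromosome 3, 49357176 to 49358353), the cytosolic selenoprotein that reduces hydrogen peroxide, was listed at 0.0718, 0.0379 and 0.0197 FPKM in EVI1 and at 0.218, 0.0858 and 0.0249 FPKM in control libraries. All 6 values were far under the minimum of 1 FPKM, so it was not tested. The GENCODE annotation gives this gene the type polymorphic pseudogene, and its copy GPX1P1 reached 2.62 FPKM in K562. The listed values of GPX1 may therefore not be the level of the gene.

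In K562 control libraries the members' mean levels ran from GPX4 at 344 FPKM through TXN at 297, TXNRD1 at 117, NQO1 at 82.6, GSS at 65.4, GSR at 58.2, GCLM at 19.8, SRXN1 at 18.8 and GCLC at 8.39 down to GPX1, listed at 0.1096 FPKM. Neighbours whose control libraries overlapped were GPX4 with TXN and GCLM with SRXN1. In K562 EVI1 libraries the means were 305 FPKM for GPX4, 204 for TXN, 109 for TXNRD1, 67.6 for NQO1, 55.3 for GSR, 48.6 for GSS, 20.5 for GCLM, 13.0 for SRXN1, 6.26 for GCLC and 0.0431 FPKM for GPX1. There neither GPX4 and TXN nor GCLM and SRXN1 overlapped, and GSR stood above GSS, although the libraries of GSR and GSS overlapped.

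**Figure D2:**
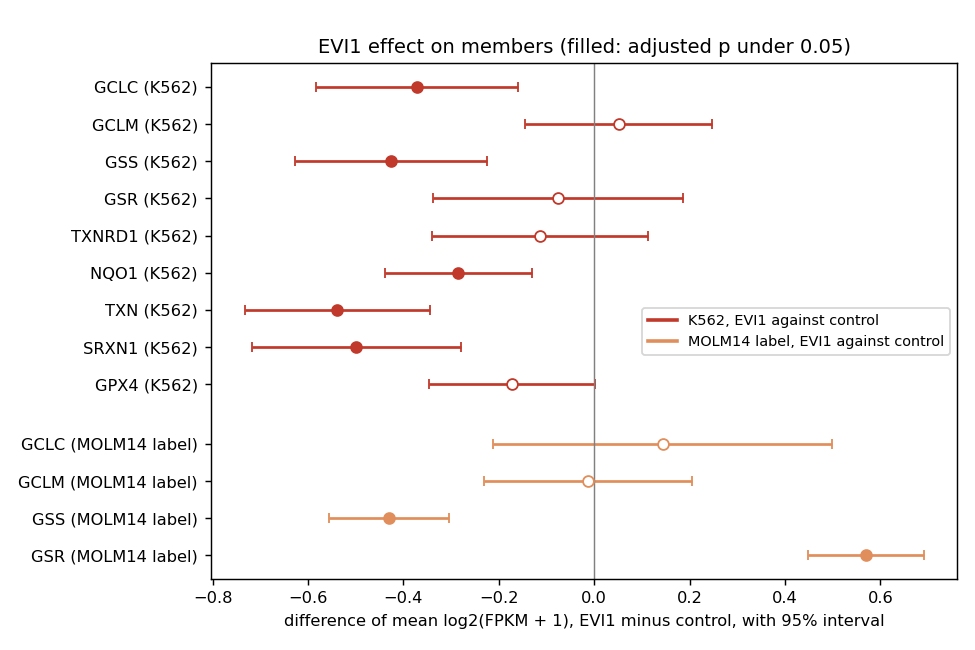
Difference of mean log2(FPKM + 1), EVI1 minus control, with its 95% interval from limma, for the 9 members tested in K562 (red) and the 4 with usable names in the libraries labelled MOLM14 (orange); filled points have an adjusted p under 0.05. In K562 the filled points are GCLC, GSS, NQO1, TXN and SRXN1, from -0.54 to -0.29, and in the libraries labelled MOLM14 they are GSS at -0.43 and GSR at 0.57.

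In the libraries labelled MOLM14, GSS was lower and GSR was higher with EVI1 overexpression, while both subunits of glutamate-cysteine ligase were not called. In this comparison 54.2% of all 13315 rows tested were called, 27.4% higher and 26.8% lower; of the rows with usable names 57.3% were called, 30.4% higher and 26.9% lower, so 2 of 4 members called is close to that share. GSS had 39.7, 42.4 and 39.3 FPKM in EVI1 and 54.2, 56.3 and 54.0 FPKM in control libraries. Every EVI1 library lay below every control (log2 fold change -0.43, SE 0.054, adjusted p = 0.000462). GSR had 72.8, 76.6 and 76.4 FPKM in EVI1 and 50.7, 51.9 and 48.5 FPKM in control libraries. Every EVI1 library lay above every control (log2 fold change 0.57, SE 0.052, adjusted p = 0.000106), and both calls held under all 13 alternatives.

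GCLC had 9.52, 12.4 and 9.88 FPKM in EVI1 and 7.85, 9.03 and 11.8 FPKM in control libraries labelled MOLM14, and the groups overlapped (log2 fold change 0.14, 95% interval -0.21 to 0.4986, adjusted p = 0.455). GCLM had 24.3, 23.0 and 25.3 FPKM in EVI1 and 28.2, 23.0 and 22.4 FPKM in control libraries, which also overlapped (log2 fold change -0.013, 95% interval -0.23 to 0.21, adjusted p = 0.919). The ratio of GCLM to GCLC was 2.56, 1.86 and 2.56 in EVI1 and 3.59, 2.55 and 1.90 in control libraries, and these overlapped as well. By mean level the order was GSR at 75.2, GSS at 40.4, GCLM at 24.2 and GCLC at 10.6 FPKM in EVI1 libraries, and GSS at 54.8, GSR at 50.4, GCLM at 24.5 and GCLC at 9.56 FPKM in control libraries. The libraries of GSR and GSS did not overlap in either group, so their order was opposite in EVI1 and control libraries.

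**Figure D3:**
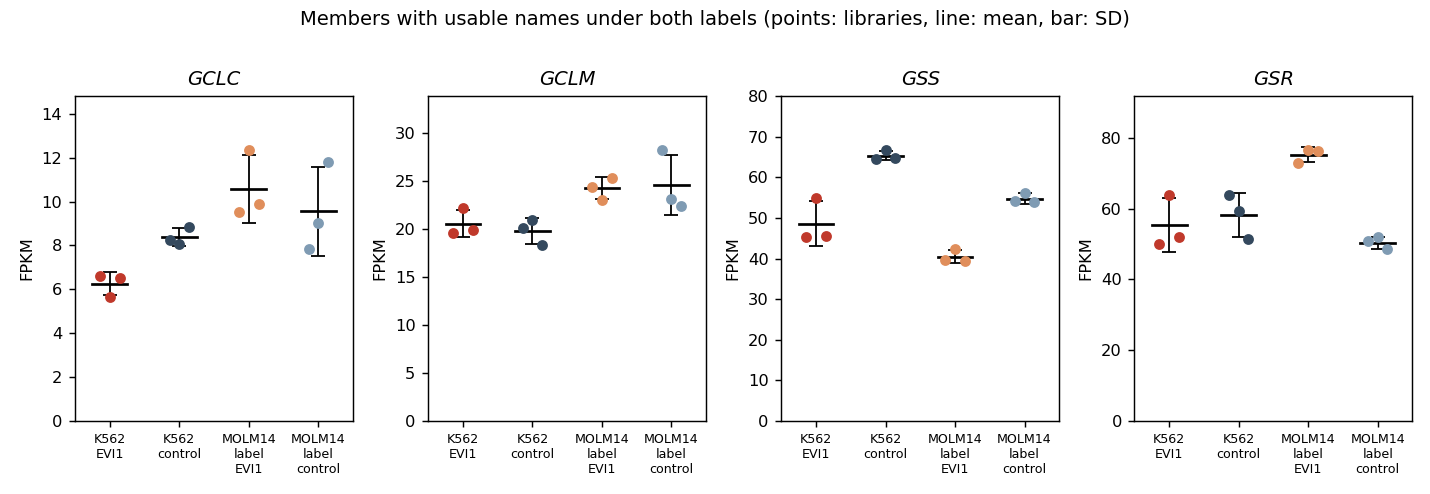
FPKM of GCLC, GCLM, GSS and GSR in the 3 libraries of each group, K562 EVI1, K562 control, EVI1 labelled MOLM14 and control labelled MOLM14, each axis from 0, with the mean as a line and the SD as a bar. GSS is lower in EVI1 than in control libraries under both labels, and GSR averages 75.2 FPKM in EVI1 and 50.4 FPKM in control libraries labelled MOLM14. FPKM summed to 765285 to 898547 in K562 libraries and to 599102 to 630579 in those labelled MOLM14, so levels are compared within a label.

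Whether the EVI1 effect differed between the labels was tested with limma over all 12 libraries, in which 64.9% of the 3697 genes tested were called, 30.8% with the K562 effect above and 34.1% with it below the other. Of the 4 members with usable names, GSR and GCLC were called and GCLM and GSS were not. For GSR the K562 effect lay 0.65 log2 units below the labelled MOLM14 effect (difference -0.65, SE 0.13, adjusted p = 0.000592), called in all 19 alternatives. For GCLC the difference was -0.52 (SE 0.18, adjusted p = 0.0202), a call lost without EVI1 replicate 2 labelled MOLM14 (-0.41, adjusted p = 0.05635), without control replicate 1 labelled MOLM14 (-0.40, adjusted p = 0.0567) and after rescaling to a common sum (-0.42, adjusted p = 0.0630), with 0.00208 to 0.0630 over all alternatives. For GSS the difference was 0.0035 with a 95% interval of -0.22 to 0.23, and for GCLM 0.065 with an interval of -0.21 to 0.34.

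The neighbouring genes of these pathways were taken as 7 lists with 139 genes, of which 138 had a row and 116 were tested in K562; 44 rose, 25 fell and 47 were not called, against 28.2% of all genes called higher and 23.7% called lower. The list of glutathione supply and breakdown had 8 of 16 tested genes higher, 1 lower and 7 not called. Its median log2 fold change was 0.29 against 0.0053 over all genes. SLC7A11, the cystine transporter subunit, had 8.18, 7.49 and 6.25 FPKM in EVI1 and 1.18, 1.47 and 1.25 FPKM in control libraries (log2 fold change 1.85, adjusted p = 7.954e-06). Its partner SLC3A2 averaged 271 ± 50.3 FPKM in EVI1 and 134 ± 5.36 FPKM in control libraries, and CTH, which makes cysteine from cystathionine, 22.8 ± 5.50 and 7.87 ± 1.63 FPKM (SD, n = 3 each). CHAC1, which breaks down glutathione, had 56.05, 101.5 and 51.5 FPKM in EVI1 and 1.62, 1.60 and 2.35 FPKM in control libraries. These 4 were named as the called genes of the list with the largest K562 changes and no overlap. Their lack of overlap was thus set by that choice. GGCT, a gamma-glutamylcyclotransferase, was the gene of the list that fell (-0.73, adjusted p = 0.00121), and was named after its value was seen.

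Among 23 tested genes for thioredoxins, peroxiredoxins and glutaredoxins other than the members, 7 rose, 7 fell and 9 were not called, with a median of -0.0200. Of all genes tested in K562, 28.2% rose and 23.7% fell. TXNIP, which binds and inhibits thioredoxin, averaged 305 ± 34.8 FPKM in EVI1 and 109.6 ± 19.9 FPKM in control libraries (log2 fold change 1.48, adjusted p = 4.726e-05), the opposite direction to TXN. SESN2, a stress-induced sestrin, averaged 51.5 ± 13.6 and 15.1 ± 1.02 FPKM. Of the other thioredoxin reductases, the mitochondrial TXNRD2 averaged 79.7 ± 7.98 FPKM in EVI1 and 52.5 ± 6.34 FPKM in control libraries, and TXNRD3 2.43 ± 0.331 and 1.08 ± 0.550 FPKM (SD, n = 3 each), and both rose; TXNRD3 was not called without the expression filter (adjusted p = 0.0734; 0.00596 to 0.0734 over the alternatives). Mitochondrial thioredoxin TXN2 had a log2 fold change of 0.0014 (adjusted p = 0.992), and the abundant peroxiredoxin PRDX1 one of -0.24 (adjusted p = 0.0671), with 605 ± 28.2 and 716 ± 84.6 FPKM and no overlap. PRDX1 was called without control replicate 2 (-0.31, adjusted p = 0.0431) and under quantile normalisation (0.0225), with 0.0225 to 0.181 over the alternatives.

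Of 6 tested enzymes for peroxide and superoxide, 3 rose, 1 fell and 2 were not called, where 28.2% of all genes rose and 23.7% fell. Catalase (CAT) averaged 73.3 ± 1.70 FPKM in EVI1 and 48.4 ± 2.84 FPKM in control libraries (log2 fold change 0.59, adjusted p = 0.000220), and the copper chaperone CCS 53.15 ± 5.22 and 37.2 ± 5.43 FPKM. SOD3, the extracellular superoxide dismutase, averaged 4.11 ± 0.408 and 0.0940 ± 0.0409 FPKM and passed the filter through the EVI1 libraries alone. Mitochondrial SOD2 fell, with 71.5 ± 2.04 FPKM in EVI1 and 92.6 ± 9.39 FPKM in control libraries (SD, n = 3 each; adjusted p = 0.00744, and 0.00155 to 0.0657 over the alternatives, the highest after rescaling to a common sum). SOD1 (log2 fold change -0.14, adjusted p = 0.145) and GPX8 (0.17, adjusted p = 0.273) were not called, and GPX3 and GPX7 lay below the filter.

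Among glutathione transferases 3 of 14 tested rose, 4 fell and 7 were not called, against 28.2% of all genes called higher and 23.7% lower. GSTM2 averaged 4.78 ± 0.898 FPKM in EVI1 and 9.80 ± 0.437 FPKM in control libraries, GSTM3 2.51 ± 0.388 and 5.30 ± 0.109 FPKM, and GSTA4 0.4098 ± 0.0670 and 1.49 ± 0.145 FPKM, the last passing the filter through control libraries alone. The GSTM genes are close copies whose reads could be split between them. HPGDS, a glutathione-dependent prostaglandin D synthase, averaged 2.77 ± 0.434 and 0.201 ± 0.129 FPKM and passed through the EVI1 libraries alone.

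Of the NRF2 regulators and further NRF2 targets, 9 of 22 tested genes rose, 5 fell and 8 were not called, with a median of 0.022. The shares over all genes were 28.2% higher and 23.7% lower. KEAP1, the inhibitor of NRF2, averaged 32.6 ± 1.24 FPKM in EVI1 and 51.2 ± 8.85 FPKM in control libraries (log2 fold change -0.62, adjusted p = 0.00318). NFE2L2 had 24.3 ± 2.99 and 27.4 ± 1.92 FPKM and was not called (-0.17, adjusted p = 0.182; 0.0394 without EVI1 replicate 2, which is the lowest over the alternatives, up to 0.473), and neither was BACH1, a repressor at the same elements (0.054, adjusted p = 0.611). AKR1C3, an aldo-keto reductase, averaged 38.8 ± 4.74 and 9.52 ± 0.135 FPKM and NQO2, a relative of NQO1, 92.9 ± 6.53 and 55.4 ± 0.826 FPKM, both higher with EVI1, while the iron exporter SLC40A1 fell, at 22.2 ± 3.53 and 37.9 ± 0.818 FPKM. AKR1C genes are close copies. HMOX1, haem oxygenase and an NRF2 target, was listed at 0 in 5 of the 6 K562 libraries.

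The list named for NADPH supply counted 6 higher, 3 lower and 7 not called of 16 tested. For this list and the next, the shares over all genes were 28.2% higher and 23.7% lower. Whether the listed enzymes, among them MTHFD2 and ME2, make NADPH in these cells was not measured. Cytosolic IDH1 averaged 75.7 ± 11.4 FPKM in EVI1 and 36.8 ± 4.48 FPKM in control libraries, the mitochondrial folate enzyme MTHFD2 174 ± 23.4 and 90.8 ± 4.53 FPKM, and the malic enzyme ME2 38.7 ± 2.85 and 22.6 ± 2.34 FPKM (SD, n = 3 each). ALDH1L2 rose (0.68, adjusted p = 0.0135) but was not called without a filter on low values (0.0764) and under quantile normalisation (0.0523), with 0.00518 to 0.0764 over the alternatives. In the list of selenoproteins and their synthesis, on which TXNRD1 and GPX4 depend, 8 of 19 tested genes rose, 4 fell and 7 were not called, with a median of 0.28. SECISBP2 and SEPSECS, which act in the insertion and the synthesis of selenocysteine, had log2 fold changes of 0.50 and 0.56, SELENOM one of 0.77, and the plasma selenoprotein SELENOP one of -0.59 (not called without the filter, adjusted p = 0.0654, the highest over the alternatives, which began at 0.00669).

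**Figure D4:**
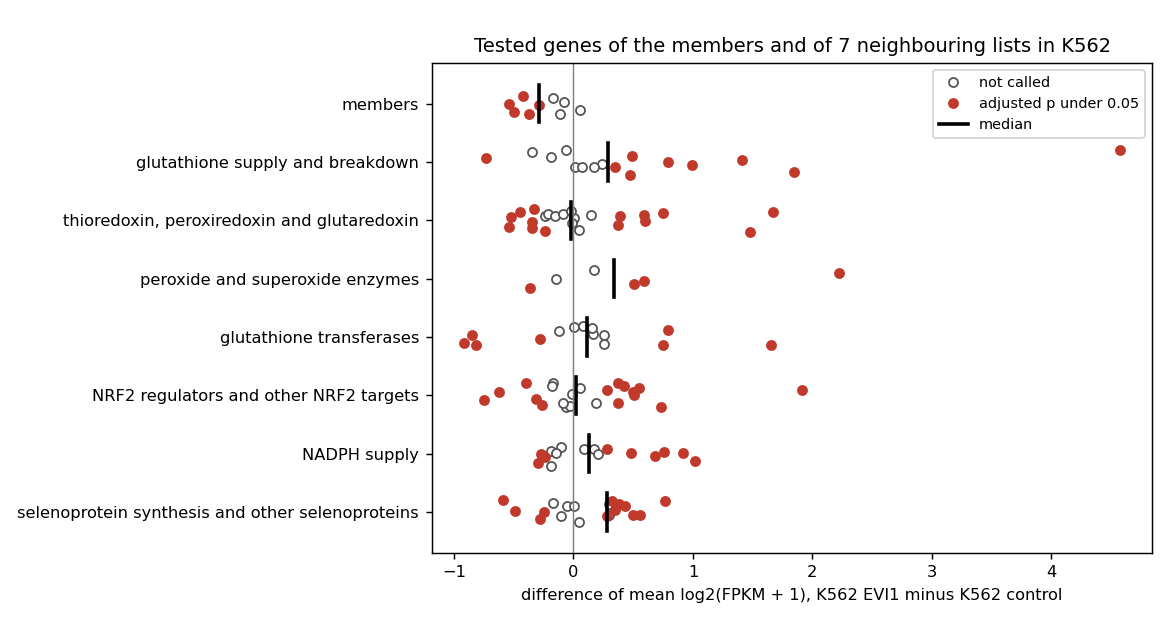
Difference of mean log2(FPKM + 1), K562 EVI1 minus K562 control, for each tested gene of the members and of the 7 neighbouring lists; red points have an adjusted p under 0.05, open points do not, and the black line is the median of the list. The 9 tested members lie between -0.54 and 0.052, and the list of glutathione supply and breakdown reaches 4.57 at CHAC1.

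In the libraries labelled MOLM14, 48 of the list genes had usable names and 41 were tested. Of these, 12 rose, 15 fell and 14 were not called. Over all tested rows with usable names, 30.4% were called higher and 26.9% lower. CTH averaged 10.8 ± 1.22 FPKM in EVI1 and 72.7 ± 2.39 FPKM in control libraries (log2 fold change -2.65, adjusted p = 1.59e-06), and MTHFD2 105 ± 0.729 and 309.6 ± 17.3 FPKM; both fell. KEAP1 averaged 38.3 ± 0.794 and 22.6 ± 1.09 FPKM and rose (0.74, adjusted p = 5.719e-05). NFE2L2 averaged 41.7 ± 0.939 and 59.9 ± 2.62 FPKM and fell (-0.51, adjusted p = 0.000211). CAT fell to 60.8 ± 2.27 FPKM in EVI1, against 82.1 ± 1.58 FPKM in control libraries, and SOD2 rose to 84.9 ± 4.44 FPKM, against 67.8 ± 1.75 FPKM (SD, n = 3 each).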

How the data were processed

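RNA of 12 human cell line libraries was sequenced after TruSeq preparation, per the labels, whose extraction text speaks of mouse tissue. The deposited FPKM values come from the authors, whose tools were STAR, Cufflinks and Cuffnorm and whose build was hg38 (GRCh38), per the submitters' processing notes; versions are not given in the sources used here. Titles gave groups and replicate numbers. All mapped columns were used; 1 row with a blank value was left out for the libraries labelled MOLM14.

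Expression was analysed as log2(FPKM + 1) with R 4.3.3 and limma 3.58.1 (mean-variance trend, two-sided, Benjamini-Hochberg over all genes of a fit) and Python 3.11.15, on genes with at least 1 FPKM in at least 3 libraries (under each label for the difference of effects). Depth came from low values of genes with 1 transcript of at least 2000 bases, searched from 20000000 to 100000000 fragments, as the depth at which low values fell near whole reads. The scripts were tested on simulated data. Unequal depth and shared reads limit precision. Members, lists and tests were chosen with earlier results of these data known. Named genes were all members, up to 4 called genes per list with the largest change and no overlap, and fixed regulators and enzymes, of which 1 is not reported here. Alternatives covered the pseudocount, filters, 3 scalings, a replicate block and each library left out.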

Additional observations from a re-analysis of the deposited data

Results flagged for a closer look

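The EVI1 effect differed between the labels, by the limma test of the difference itself over 12 libraries, for members and neighbouring genes with usable names under both labels; values are the K562 effect minus the labelled MOLM14 effect in log2 units. Among the members the difference was -0.65 for GSR (adjusted p = 0.000592) and -0.52 for GCLC (adjusted p = 0.0202). In the neighbouring lists, the K562 effect lay above the labelled MOLM14 effect for CTH at 4.06 (adjusted p = 2.126e-09), MTHFD2 at 2.47, SEPSECS at 1.51, CAT at 1.02 and ME2 at 1.00. NFE2L2 had a difference of 0.34 (adjusted p = 0.0196). The K562 effect lay below for KEAP1 at -1.36 (adjusted p = 1.245e-06), SOD2 at -0.69 and PRDX1 at -0.48 (adjusted p = 0.00239). CTH, MTHFD2, SEPSECS, CAT and ME2 were called higher in K562 and called lower in the libraries labelled MOLM14, and KEAP1 and SOD2 were called the other way round. The call of ME2 in the libraries labelled MOLM14 (log2 fold change -0.25, limma adjusted p = 0.0369) was lost without a filter on low values and without each library but control replicate 3 (0.0149 to 0.0975 over the alternatives). The differences of these 11 genes other than GCLC were called under all 19 alternatives. Since 64.9% of all genes tested passed this test, a call is common among them.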

How the results depend on the processing

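Rescaling to a common FPKM sum left 3 members called in K562 (GSS, TXN and SRXN1) and 1 in the difference of effects (GSR), and gave 4110 genes higher and 2178 lower in K562, against 3898 and 3265 as deposited. Leaving out each library in turn gave 5 to 6 members called in K562, 2 to 2 in the libraries labelled MOLM14 and 1 to 2 in the difference, and 5591 to 6818, 5975 to 6386 and 2262 to 2391 genes called. No pairing is stated in the labels: deviations of same-numbered K562 libraries correlated at -0.215, -0.0518 and 0.126. With the replicate block 5 members and 7044 genes were called in K562, 2 and 7098 in the libraries labelled MOLM14, and 2 and 2449 in the difference. Signs that turned belonged to genes not called. Over libraries left out, GCLM ran from -0.0023 to 0.091 in K562, from -0.073 to 0.087 in the libraries labelled MOLM14 and from -0.035 to 0.12 in the difference, GSS from -0.087 to 0.05022 in the difference, BACH1 from -0.0015 to 0.11 in K562, and TXN2 from -0.081 to 0.062, -0.0398 to 0.062 and -0.0899 to 0.053 in the same 3 comparisons. By scaling, GPX8 had -0.023 in K562 under quantile normalisation; TXN2 had -0.021 and -0.059 in the libraries labelled MOLM14, and 0.092 and 0.11 in the difference, under a common sum and quantile normalisation, and 0.039 in the difference with trimmed means. The causes were not tested. FPKM give no count per gene, so counting error is unknown.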

Other observations

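Copies, found by symbol alone, and overlapping genes, where a member had any, were mostly listed at low FPKM in K562. Such values do not give the number of reads shared with a member. The 7 TXN pseudogenes named TXNP summed to at most 1.34 FPKM in any K562 library. GPX1P1, a GPX1 copy, reached 2.62 FPKM, above every value of GPX1 itself, and reads shared between the copies cannot be told apart. Within the span of TXNRD1 on the same strand, the pseudogene RPL18AP3 was listed at 23.3 to 31.8 FPKM. The protein-coding AL121758.1, which overlaps SRXN1 on the same strand, was listed at 1.31e-06 to 1.15e-05 FPKM. How reads were split between it and SRXN1 was not tested.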
